A study of Mus musculus with 15 samples.

Results

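The promoters described here belonged to the mouse zinc finger genes whose symbol is Zfp followed by digits alone, at promoters with a deposited coverage score above 100. RefSeq transcript identifiers were paired with gene symbols, and where a gene had several promoters above the limit the one with the highest score was kept. This gave 186 genes, 1 promoter each, of the 13559 promoters above the score and of 25881 promoters in all. The series held 350 numbered Zfp genes at any score, so 164 of them lay at or below the limit and were not used. Scores of the 186 ran from 100.25 to 1450 with a median of 167, against a median of 201 for all covered promoters. Zfp335 and Zfp871 lay just inside the limit, both with a score of 100.25. Zfp184 and Zfp689 lay just outside it, with scores of 99.75 and 99.0.

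Most numbered Zfp genes encode proteins with arrays of C2H2 zinc fingers, each finger a short loop that grips a few bases of DNA. Many carry a KRAB domain, which recruits the co-repressor TRIM28 and, through it, the histone methyltransferase SETDB1 to silence retroelements and imprinted regions. Such genes lie in tandem clusters that arose by duplication. A gene that is transcribed usually has a nucleosome-depleted region (NDR) just upstream of its transcription start site (TSS), bounded by a −1 and a +1 nucleosome.

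The study mapped nucleosomes by ChIP-MNase, in which long chromatin fragments are first enriched by ChIP and then digested with micrococcal nuclease, so that what is sequenced is the nucleosomal DNA around the enriched feature. Dendritic cells (DCs), differentiated in vitro from bone-marrow progenitor lines, were non-stimulated or given 100 ng/ml LPS for 1 h. 3T3 fibroblasts, an established embryonic line, were non-stimulated or given 5 ng/ml TNF-α for 1 h. Each of these 4 H3K4me1 sets pooled 2 replicates. A second group of H3K4me1 libraries came from control fibroblasts and from fibroblasts with stable shRNA knock-down of Brg1 and Brm, the ATPases of the BAF remodelling complex. The knock-down cells were transduced with a retrovirus and sorted for GFP, and how the controls were made is not given in the sources used here. Both kinds were non-stimulated or given TNF-α at the same dose and time, with 2 libraries per group. Nothing in the files used here measured how far Brg1 and Brm had fallen, though the paper reports reduced levels of both transcripts by quantitative RT-PCR. Finally, 3 libraries of TNF-α-stimulated fibroblasts were enriched for RNA polymerase II, 2 with an antibody to serine 7 phosphorylation (S7P) and 1 with an antibody to serine 5 phosphorylation (S5P).

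Occupancy was deposited in 200 bins of 10 bp around each TSS, and was divided here by the library mean so that 1 is the average. Among covered promoters 82.0% to 90.2% of bins held a fragment in the pooled sets, and 63.5% to 81.2% in the single libraries. The deposited expression scores matched the labelled cell types: 10 of 10 DC markers ranked higher in DCs, among them Cd74 and Itgax, and 1 of 10 fibroblast markers did so, Thbs1, with Col1a1 and Col1a2 ranking higher in fibroblasts. The paper's methods list expression in DCs and in fibroblasts among the public datasets it used. The markers and the classes by expression below therefore need not describe the cultures whose nucleosomes were mapped. Expression was measured in bulk, where fewer cells with a transcript and less transcript per cell cannot be told apart.

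The genes clustered as the family is known to. Chromosome 7 held 43 of the 186, chromosome 17 held 27 and chromosome 13 held 20, which is 23.1%, 14.5% and 10.8% against 7.84%, 6.20% and 3.83% of all covered promoters. Another numbered Zfp TSS lay within 200 kb of 116 of them, and 45 had 5 or more such neighbours. In the annotated protein of 177 genes the median number of C2H2 fingers was 11, with a range of 0 to 37, and 84 proteins matched a sequence pattern of the KRAB domain. The pattern is a lower bound, since the KRAB proteins Zfp57 and Zfp69 were among those it did not find.

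These promoters were more often rich in CpG and more often expressed than covered promoters as a whole. CpG islands were defined by base content within 200 bp of the TSS (GC above 50%, and CpG above 0.6 of its expected number), and were found at 125 of 186 (67.2%), against 56.2% of all covered promoters. Active promoters had an expression score above 0.02 of the overall mean and inactive ones a score of 0, and 154 (82.8%) were active in DCs and 123 (66.1%) in fibroblasts, against 61.8% and 47.6%. Expression was 0 at 10 genes in DCs and at 6 in fibroblasts, which is 5.38% and 3.23% against 23.8% and 17%. A divergent partner within 1 kb upstream was found at 23 (12.4%), against 16.0%.

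A short sequence recurred upstream of the TSS. The letters ACTACANNTCCC, on either strand of the 150 bp before the TSS, stood in 33 of 186 numbered Zfp promoters (17.7%) and in 318 of 13559 covered promoters (2.35%). This motif was chosen after the sequences of the deepest NDRs had been read. It is ACTACAATT with 2 positions left free and with the bases CCC that followed in every numbered Zfp promoter holding that shorter form, which was found in 5 (2.69%) against 0.398% of all. ACTACAATTCCC is known as the core that ZNF143, the human counterpart of Zfp143, recognises at promoters, but binding was not measured here. The motif was carried by 12 of the 20 promoters on chromosome 13, 12 of the 43 on chromosome 7 and 9 of the 123 elsewhere (7.32%). It was found in 22 of the 84 promoters of genes with the KRAB pattern (26.2%) and in 9 of the 93 without (9.68%). None of 40 covered promoters of numbered Zbtb, Zscan, Zkscan or Klf genes held it, a set too small to set apart from the 2.35% of all. At promoters of numbered Zfp genes at or below the score limit, which are not among the 186, it stood in 20 of 166 (12.0%). The promoters that follow show it in 3 neighbouring genes on chromosome 13 and in 3 genes on chromosomes 7 and 8, read 5′ to 3′ along the gene from build NCBIM37 (mm9), from −150 to −1 bp, with the motif in capitals.
Zfp458, chr13:67370005-67370154, minus strand: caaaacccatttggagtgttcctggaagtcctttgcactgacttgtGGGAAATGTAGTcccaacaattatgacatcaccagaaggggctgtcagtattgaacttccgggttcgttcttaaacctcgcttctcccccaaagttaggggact
Zfp457, chr13:67407349-67407498, minus strand: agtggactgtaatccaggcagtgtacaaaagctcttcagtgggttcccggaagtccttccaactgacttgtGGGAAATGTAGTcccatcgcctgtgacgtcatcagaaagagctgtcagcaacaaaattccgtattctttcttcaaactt
Zfp759, chr13:67229015-67229164, plus strand: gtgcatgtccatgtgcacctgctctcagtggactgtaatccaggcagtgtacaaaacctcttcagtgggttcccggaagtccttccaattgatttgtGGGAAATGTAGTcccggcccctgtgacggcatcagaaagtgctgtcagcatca
Zfp790, chr7:30600942-30601091, plus strand: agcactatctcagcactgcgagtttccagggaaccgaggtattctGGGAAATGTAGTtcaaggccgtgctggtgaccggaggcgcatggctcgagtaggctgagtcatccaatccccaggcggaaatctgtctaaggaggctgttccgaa
Zfp108, chr7:25039664-25039813, plus strand: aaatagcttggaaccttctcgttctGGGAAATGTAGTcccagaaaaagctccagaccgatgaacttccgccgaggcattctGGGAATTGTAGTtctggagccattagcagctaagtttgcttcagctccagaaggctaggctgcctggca
Zfp358, chr8:3492989-3493138, plus strand: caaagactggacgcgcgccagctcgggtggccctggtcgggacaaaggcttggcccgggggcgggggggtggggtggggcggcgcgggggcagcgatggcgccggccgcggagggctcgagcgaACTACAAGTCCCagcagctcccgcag

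The 3 chromosome 13 promoters, of genes with the KRAB pattern and 18 to 21 fingers, share long stretches around the motif, so they are not independent examples. The authors kept fragments that were unique among promoter regions, and how many fragments near-identical copies lost to that rule was not measured here. All 3 held the motif on the antisense strand. Zfp108 held it on the antisense strand at 2 places, the second of them also a match to ACTACAATT, and its TSS lay 2849 bp from the nearest annotated start. Zfp358, whose promoter is a CpG island, held it on the sense strand from −26 to −15 bp.

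Other motifs searched on both strands differed less. CCGGAAG, an ETS-type core, was present in 35 (18.8%) against 9.29% of all covered promoters. TGACGTCA, a cAMP response element, was present in 9 (4.84%) against 2.01%. TATAAA was present in 3 (1.61%) against 5.42%. GGGCGG, a GC box, was present in 68 (36.6%) against 42.5%. GCGCATGCG and AAGATGGCG were present in 4 (2.15%) and 1 (0.538%), against 1.76% and 0.686%. The median number of CpG dinucleotides in the 150 bp was 8 both in these promoters and in all.

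The mean profile of the numbered Zfp promoters had a deep NDR with a strong nucleosome on each side of it. In non-stimulated DCs mean occupancy fell to 0.438 at −55 bp, with peaks of 1.56 at 125 bp and of 1.41 at −215 bp. All active promoters of DCs fell to 0.521, with a +1 peak of 1.44 and an upstream peak of only 1.08 at −365 bp. In non-stimulated fibroblasts the values were 0.454 at the minimum, 1.62 at the +1 peak and 1.34 at the −1 peak, against 0.459, 1.61 and 1.13 at active promoters. The minimum and the +1 peak were thus near those of active promoters in general, and the upstream nucleosome was the feature that stood higher.

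**Figure D1:**
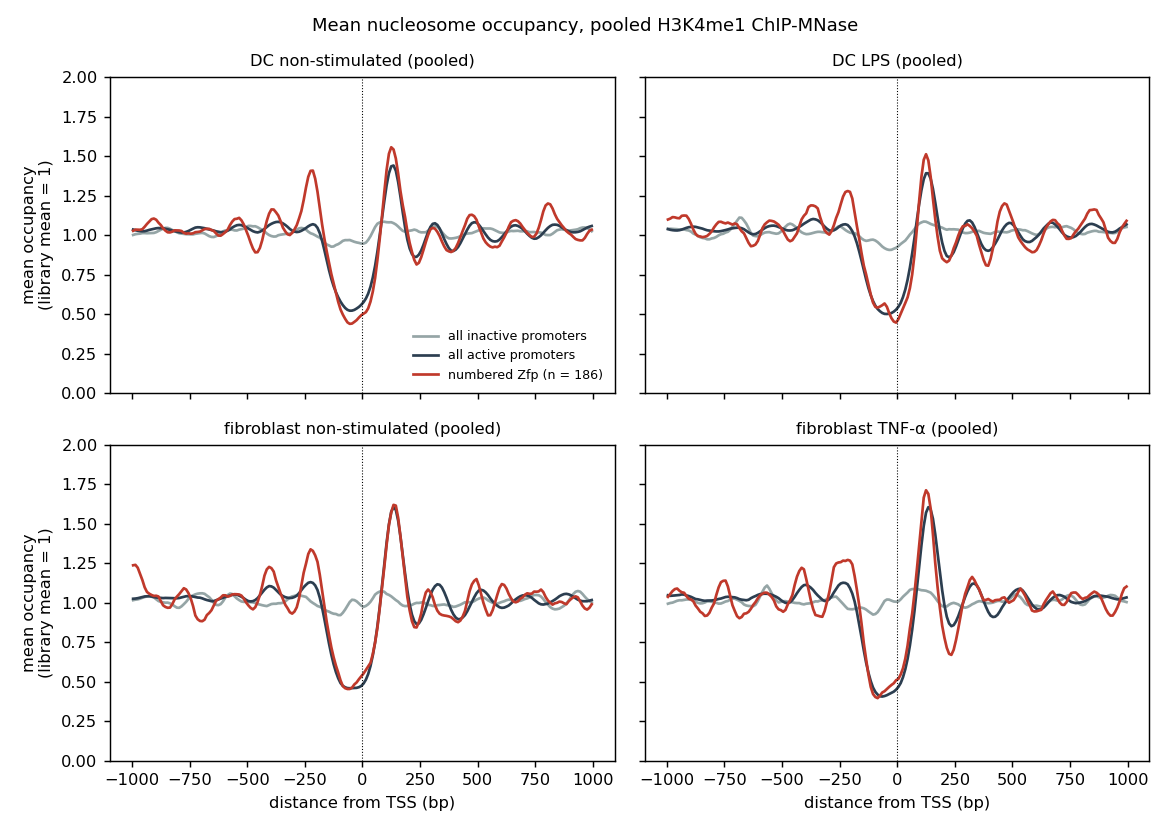
Mean nucleosome occupancy (library mean = 1) against distance from the TSS in bp, in the 4 pooled H3K4me1 sets, for the 186 numbered Zfp promoters (red), all active promoters (dark) and all inactive promoters (grey) of the same cell type. The red and dark curves share the NDR and the +1 peak, and the red curve has a higher peak near −215 bp, 1.41 against 1.08 at the highest upstream point of active promoters in non-stimulated DCs.

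The −1 nucleosome was measured in a window from −270 to −160 bp, which was set after the profiles had been seen. Mean occupancy in it was higher at numbered Zfp promoters than at active promoters of the same cell type in 15 of 15 libraries, by 0.113 to 0.357 with a median difference of 0.206. Across libraries it ran from 1.18 to 1.6 at the former and from 1.02 to 1.28 at the latter. In the 8 single H3K4me1 libraries it was 1.32 ± 0.0831 (SD, n = 8) against 1.11 ± 0.0197 at active promoters, and the ranges of 1.21 to 1.43 and 1.09 to 1.13 did not overlap. The libraries share the same 186 promoters, so 15 of 15 counts libraries and not genes.

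The difference remained in narrower classes. Among promoters with no divergent partner the numbered Zfp promoters were higher in 15 of 15 libraries, by a median of 0.214. With a CpG island they were higher than active CpG island promoters in 15 of 15, by a median of 0.171, and without one than active promoters without one in 15 of 15, by a median of 0.265. With medians over promoters in place of means they were again higher than active promoters in 15 of 15. In the +1 window, from 80 to 180 bp, they were higher in 13 of 15 libraries, with a median difference of 0.0420. In the flank, from −1000 to −500 bp, they were higher in 3 of 15, with a median difference of −0.0192.

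**Figure D2:**
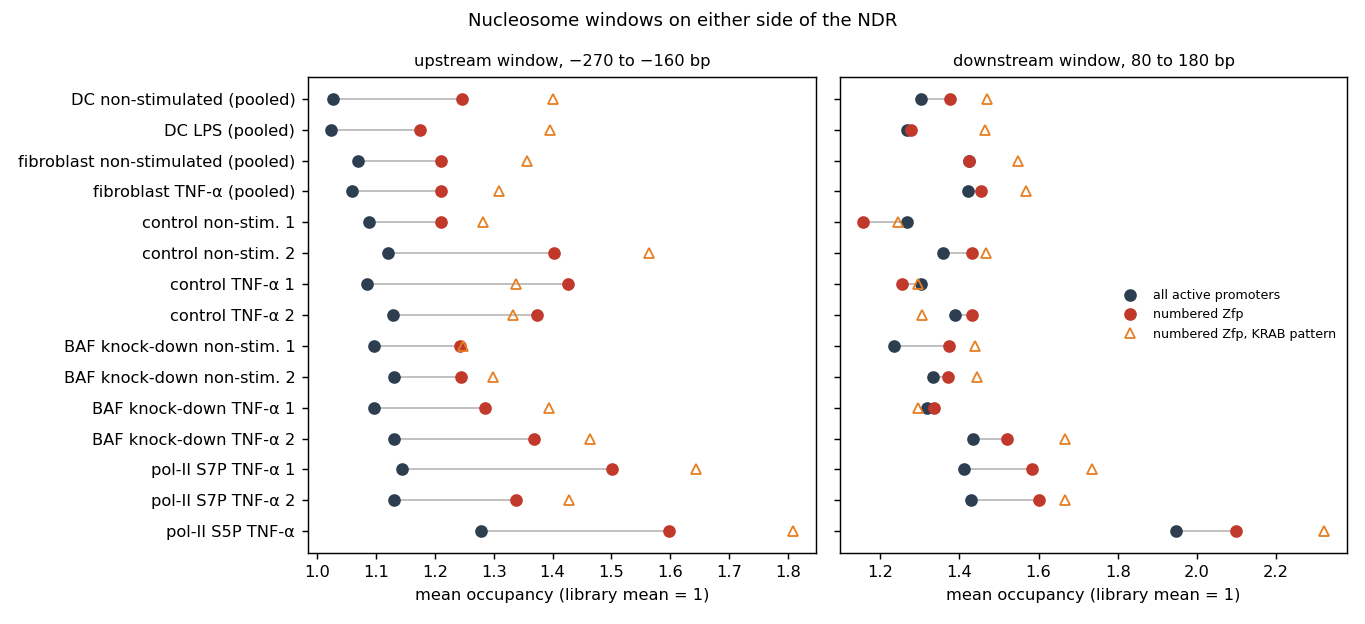
Mean occupancy (library mean = 1) in the −1 window (left) and the +1 window (right) in each of the 15 libraries, for all active promoters (dark), the 186 numbered Zfp promoters (red) and the 84 of genes with the KRAB pattern (open triangles). In the left panel every red point lies to the right of its dark point, by 0.113 to 0.357, and in the right panel 13 of 15 do.

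Promoters of genes with the KRAB pattern had the higher −1 nucleosome and the lower NDR in most libraries. Their −1 window was higher than that of genes without the pattern in 12 of 15 libraries, with medians over libraries of 1.39 and 1.26. In both control TNF-α libraries the order was turned, with 1.34 against 1.51 and 1.33 against 1.45. It was also turned in non-stimulated knock-down library 1, with 1.25 against 1.26. The NDR window of the KRAB class was lower in 14 of 15, with medians of 0.531 and 0.677. In non-stimulated DCs the 84 promoters had a −1 occupancy of 1.40 and an NDR occupancy of 0.394, against 1.13 and 0.679 for the 93 without the pattern. The KRAB class held fewer CpG islands, 59.5% against 76.3%.

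The 33 promoters with the ACTACANNTCCC motif had an NDR occupancy of 0.424 as a median over libraries, and the other numbered Zfp promoters 0.647. The motif was chosen from the promoters with the deepest NDRs, so the lower value at its carriers in the family is a description and no finding. The active promoters outside the family that held the motif, which were not used in that choice, had 0.386, below the 0.589 of all active promoters in 15 of 15. The −1 window differed between these 2 sets: 1.49 at the 33 and 1.15 at motif promoters outside the family, higher in 13 of 15 libraries. Of the 33, 12 lay on chromosome 7 and 12 on chromosome 13. The motif stood in 29 of the 116 promoters with another numbered Zfp TSS within 200 kb and in 4 of the 70 without one, and the part of gene clusters in these values was not tested.

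NDR depth at single promoters was measured as the log2 ratio of mean occupancy from −150 to 0 bp over that from −1000 to −500 bp, each with 0.1 added. A negative value is a depleted promoter, and an empty NDR window beside a flank at the library mean gives −3.46. The median of the numbered Zfp promoters was −1.14 in non-stimulated DCs, −0.95 in LPS-stimulated DCs, −1.02 in non-stimulated fibroblasts and −1.33 in TNF-α-stimulated fibroblasts. The medians of all covered promoters in the same sets were −0.56, −0.62, −0.59 and −0.67. The numbered Zfp median lay below that of all covered promoters in 15 of 15 libraries and below that of active promoters in 6 of 15. Of the 186, 40 (21.5%) were below −1 in all 4 pooled sets, against 15% of covered promoters, and 37 (19.9%) were below −1 in no set, against 35.3%.

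**Figure D3:**
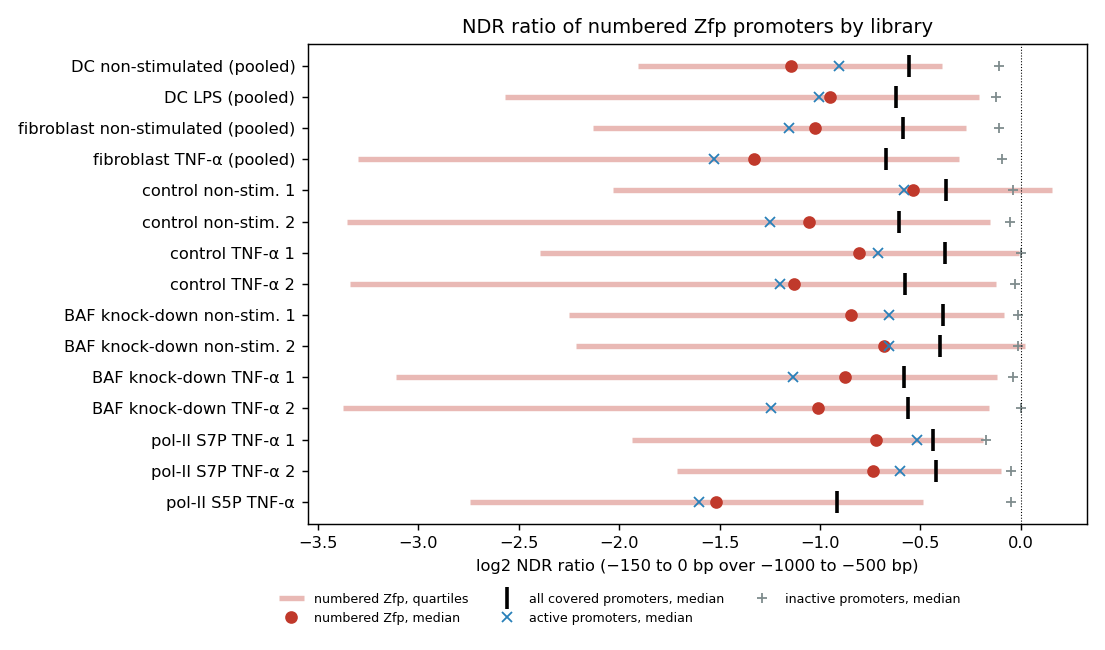
Log2 NDR ratio in each of the 15 libraries, with the median (red point) and quartiles (bar) of the 186 numbered Zfp promoters and the medians of all covered (black tick), active (blue cross) and inactive (grey plus) promoters. The red point lies left of the black tick in all 15 libraries, and lies left of the blue cross in 6.

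The patterning level, which scores how closely the whole 2 kb profile follows the mean shape of active promoters, was also on the side of active promoters. Its median at numbered Zfp promoters was 6.34 in non-stimulated DCs and 7.16 in non-stimulated fibroblasts, against 3.44 and 3.51 for all covered promoters and 5.12 and 6.43 for active ones. It was above that of all covered promoters in 15 of 15 libraries and above that of active promoters in 13 of 15, whereas the median NDR ratio was below that of active promoters in 6 of 15.

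The difference from other promoters was set out by CpG island. In non-stimulated DCs the 61 numbered Zfp promoters without an island had a median ratio of −0.93, against −0.17 for the 5939 covered promoters without one. In non-stimulated fibroblasts the medians were −0.55 and −0.15. With an island the medians were −1.26 against −1.02 in DCs and −1.33 against −1.20 in fibroblasts. Among promoters active in both cell types and without an island, 28 numbered Zfp promoters had a median over the pooled sets of −1.31, against −0.51 for all 1014. Among those active in both and with an island the order was turned, −1.65 for 84 against −1.82 for all 4475.

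Depth followed expression in a coarse way. In DCs the 46 numbered Zfp genes with the lowest expression had a median ratio of −0.66 in the non-stimulated set, and the next 47, 46 and 47 had −1.15, −1.37 and −1.15. In fibroblasts the lowest 46 had −0.62 and the next 47, 46 and 47 −1.03, −1.04 and −1.47. The 21 genes active in neither cell type had a median over the pooled sets of −0.70, still below the −0.20 of all 4218 promoters of that class. High expression did not always go with a deep NDR. Of the 5 genes with the highest expression in DCs, Zfp36 and Zfp871 stood at −2.90 and −3.41 over the pooled sets. Zfp992, Zfp991 and Zfp217 stood at −0.61, −0.27 and 0.28. In non-stimulated DCs alone, the state of that expression score, Zfp36 and Zfp871 were at −3.53 and −3.08. There Zfp992 and Zfp217 were at −0.72 and −0.15, and Zfp991 was at −1.10, near the numbered Zfp median of −1.14. The highest in fibroblasts were Zfp260, Zfp146, Zfp207, Zfp871 and Zfp106. Over the pooled sets Zfp260 stood at −1.71, Zfp146 at −2.97 and Zfp207 at −1.11. In non-stimulated fibroblasts alone, the state of the expression score, they were at −0.70, −3.69 and −1.55. CpG islands were also rarer among the lowest 46, 56.5% in DCs and 50% in fibroblasts, against 80.9% among the highest 47 in fibroblasts, and their part was not tested.

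Single promoters spanned the whole range from an empty NDR to no NDR. Averaged over the 4 pooled sets, Zfp174, a SCAN-domain protein, was the lowest at −3.68, with −3.82, −3.68, −3.63 and −3.58 in non-stimulated DCs, LPS-stimulated DCs, non-stimulated fibroblasts and TNF-α-stimulated fibroblasts. Zfp871, with the KRAB pattern, followed at −3.41, with −3.08, −3.63, −3.50 and −3.42. Both were thus near the value of an empty window in every pooled set. Zfp458, Zfp277, Zfp963 and Zfp146 came next, at −3.10, −3.06, −3.03 and −2.97. In the single libraries even Zfp174 was not always empty, with 0.40 in the second control TNF-α library.

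At the other end, Zfp646, a protein of 30 fingers, was the highest at 0.86, with 0.77, 2.08, −0.66 and 1.27 in the same order of sets. Zfp319 followed at 0.68 and Zfp672, which had the highest coverage score of the 186, at 0.65. Zfp672 was above 0 in 15 of 15 libraries, from 0.22 to 1.44. Zfp473, Zfp516 and Zfp74 stood at 0.37, 0.34 and 0.34. The Zfp74 TSS used by the study lay 2194 bp from the nearest annotated start, whereas 149 of the 186 lay within 50 bp of one. The upstream sequences of 2 deep and 2 shallow promoters are given to show the range of base content, read as before, with CpG dinucleotides in capitals.
Zfp174, chr16:3847074-3847223, plus strand: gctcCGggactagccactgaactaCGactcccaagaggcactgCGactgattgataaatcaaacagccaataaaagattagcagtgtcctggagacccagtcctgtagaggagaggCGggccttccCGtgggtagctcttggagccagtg
Zfp871, chr17:32925233-32925382, minus strand: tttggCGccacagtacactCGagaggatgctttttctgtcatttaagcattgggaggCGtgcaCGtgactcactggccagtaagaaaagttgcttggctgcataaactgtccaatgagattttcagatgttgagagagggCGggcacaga
Zfp672, chr11:58136616-58136765, minus strand: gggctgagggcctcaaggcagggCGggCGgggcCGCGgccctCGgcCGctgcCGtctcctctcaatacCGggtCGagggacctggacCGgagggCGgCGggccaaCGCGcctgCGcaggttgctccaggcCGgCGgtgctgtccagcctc
Zfp646, chr7:135021066-135021215, plus strand: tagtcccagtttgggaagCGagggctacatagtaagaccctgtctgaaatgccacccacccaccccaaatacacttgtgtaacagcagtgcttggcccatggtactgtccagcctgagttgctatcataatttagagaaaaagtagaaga

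Over the family, the median ratio over the pooled sets was −1.63 with a CpG island and −0.70 without. CpG content did not order the few promoters shown here. Zfp174 and Zfp871 each held 5 CpG in 150 bp, Zfp672 held 17 and Zfp646 held 1.

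**Figure D4:**
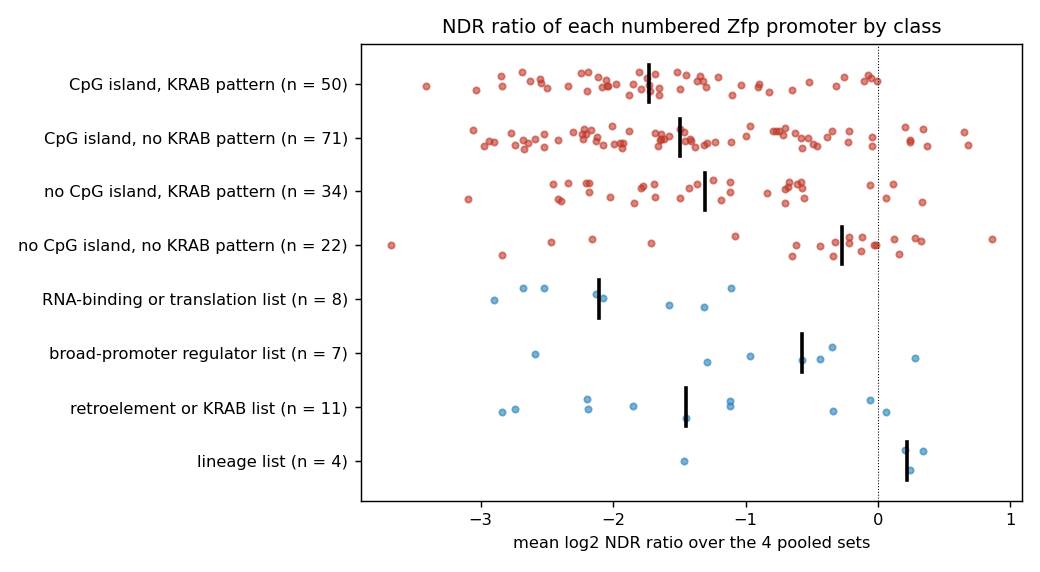
Mean log2 NDR ratio over the 4 pooled sets for each numbered Zfp promoter (points, shifted vertically for sight) by CpG island and KRAB pattern (red) and by role list (blue), with the median of each class as a black bar. The class with neither island nor KRAB pattern has a median of −0.27 against −1.73 for the class with both. The RNA-binding list lies wholly below −1, and the role lists were chosen with earlier results of these data known.

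The median ratios of the role lists ran from −2.10 to 0.22, with no test between them. These lists were chosen with earlier results of these data known, so their values are a description and no finding. Over the 4 pooled sets 115 of the 186 promoters were below −1 on average (61.8%), against 43.3% of all covered promoters. The 125 numbered Zfp promoters with a CpG island had a median of −1.63. All 8 covered promoters of 11 listed genes for RNA-binding or translation proteins had an island. They were all below −1 on average, with a median of −2.10. They included Zfp36 (tristetraprolin, which drives decay of cytokine mRNAs) at −2.90, Zfp346 at −2.68, Zfp106 at −2.52 and Zfp598, a sensor of collided ribosomes, at −2.08. Zfp36 also had the highest deposited expression of the 186 in DCs. Its ratio was −3.53 and −3.48 in the DC sets, −3.39 in non-stimulated fibroblasts and −1.20 after TNF-α. The weakest of the list were Zfp326 at −1.32 and Zfp207, a kinetochore and splicing protein, at −1.11.

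The KRAB and retroelement list had 11 covered promoters of 14 genes, with a median of −1.45 and 8 below −1. Zfp809, which silences murine leukaemia virus proviruses, stood at −2.84, Zfp69 at −2.74 and Zfp708 at −2.19. Zfp568, a repressor in the embryo and placenta, stood at −1.45. Zfp57, the guardian of imprinting control regions, stood at −0.34. Its expression was 0 in DCs but 23.2 in fibroblasts, where its ratio was 0.02 without and 0.01 with TNF-α. Zfp459 and Zfp13 stood at −0.06 and 0.06.

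The 7 covered of 9 genes on the list named for broad-promoter regulators had a median of −0.57, with 2 below −1, although 5 had a CpG island. Zfp335 stood at −2.59. Zfp410, an activator of the NuRD subunit gene Chd4 and so not clearly a broad regulator, stood at −1.29. Zfp148, Zfp384 and Zfp281 stood at −0.35, −0.57 and −0.96, and Zfp217 at 0.28. Zfp384 varied widely, with 1.33, −2.62, −1.61 and 0.60 over the 4 pooled sets. Zfp143 itself had a score of 43.75 and was not among the 186.

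Of 15 lineage and developmental regulators only 4 passed the coverage limit, which left out Zfp423, Zfp521 and Zfp42. Zfp503, Zfp516 and Zfp467 stood at 0.24, 0.34 and 0.20, and Zfp35 at −1.46. All 4 had a CpG island. The 71 promoters with a CpG island and without the KRAB pattern had a median of −1.50, below those of Zfp503, Zfp516 and Zfp467.

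Among other zinc finger families the pooled medians were −1.40 for 20 numbered Zbtb promoters, −1.02 for 14 numbered Zscan or Zkscan promoters and −1.24 for 3 numbered Klf promoters, against −1.44 for numbered Zfp. The 14 promoters of co-repressor genes had a median of −1.07. Cbx1, a heterochromatin protein, stood at −2.76 and Setdb1 at −0.85. These differences were not tested.

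The promoters were then compared between DCs and fibroblasts, in the 4 pooled sets. No promoter passed limma's adjusted p of 0.05, neither among the 186 nor among all 13559 (0%), and the adjusted p of the 186 was 0.351 or more. At an unadjusted p under 0.05 there were 14 of the 186 (7.53%) and 1071 of all (7.90%). The median difference, DC minus fibroblast, was 0.04 for the 186 and 0.08 for all. With 2 sets per cell type, one resting and one stimulated, only differences far larger than the median standard error of 0.69 could have been called.

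The largest differences by estimate were these. Zfp933, with the KRAB pattern and the motif, was at −3.38 and −3.48 in the DC sets and at −0.19 and −0.09 in the fibroblast sets, a difference of −3.29 ± 0.45 (SE). Zfp566, another KRAB gene with the motif, was at −3.23 and −3.26 in DCs against −0.47 and 0.23. Zfp945 was at −3.27 and −3.41 against −0.77 and 0.69. In the other direction Zfp524 was at 0.54 and −0.59 in DCs and at −4.37 and −3.37 in fibroblasts, and Zfp512 was at −0.86 and −0.40 against −3.64 and −3.60. Zfp574 gave the remaining large estimate, 3.40 ± 1.16. The groups did not overlap at any of these 6, and none passed the adjusted test.

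The control fibroblast libraries did not all show these differences. Zfp524 stayed low in control non-stimulated library 2 and in both control TNF-α libraries, at −4.21, −4.0 and −2.33, but was at 1.46 in control non-stimulated library 1. Zfp933 was at −3.57, −3.61 and −2.53 in the same 3 control libraries and at −0.56 in control non-stimulated library 1. Non-overlap of the pooled sets was seen at 22 of the 186 lower in DCs (11.8%) and 30 higher (16.1%), against 16.9% and 21% of all covered promoters.

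Across the 186, ranks of the NDR ratio were only loosely kept. Spearman's rho over the 186 was 0.479 between the DC sets, 0.373 between the fibroblast sets and 0.374 between non-stimulated DCs and fibroblasts. Between single replicates of the same group it ran from 0.238 to 0.473. These are correlations across genes, which are not independent replicates, and points within a library share its depth.

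In the BAF comparison, the NDR of the numbered Zfp promoters differed between knock-down and control libraries by less than the spread between libraries. The mean over libraries of their median ratio was −0.85 ± 0.13 (SD, n = 4) in knock-down and −0.88 ± 0.27 (SD, n = 4) in control fibroblasts. By library the medians were −0.54 and −1.05 in non-stimulated controls, −0.81 and −1.13 in TNF-α controls, −0.85 and −0.68 in non-stimulated knock-down and −0.87 and −1.01 in TNF-α knock-down. The ranges overlapped. In the deposited names the first knock-down library of each state carries another tag than the control and second knock-down libraries, and its meaning is not given in the sources used here and its part was not tested. None of the 186 and none of the 13559 promoters passed limma's adjusted p of 0.05 (0%), with 10 of the 186 (5.38%) and 699 of all (5.16%) at an unadjusted p under 0.05.

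By estimate, Zfp638, a nuclear RNA-binding protein, had the clearest separation toward lower values. It was at −3.48, −2.86, −3.00 and −3.53 in the knock-down libraries and at −0.03, −0.08, −1.11 and −2.78 in controls, a difference of −2.21 ± 0.57 (SE, adjusted p 0.819 by limma). These groups did not overlap. Zfp865 went the other way, at −1.44, 0.20, −0.27 and 0.17 in knock-down against −3.54, −3.67, −1.23 and −3.70, with overlapping groups (difference 2.70 ± 0.65, adjusted p 0.716 by limma). Zfp78 and Zfp959 had estimates of 3.17 and 2.66, and Zfp668 and Zfp598 of −2.31 and −1.80, with larger errors. Groups that did not overlap were found at 1 of the 186 in each direction (0.538%), against 1.29% lower and 1.36% higher of all.

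The −1 nucleosome of the 186 was at 1.28 ± 0.0590 (SD, n = 4) in knock-down libraries and at 1.35 ± 0.0978 (SD, n = 4) in controls, a difference within the spread of the libraries. Active promoters had 1.11 ± 0.0194 and 1.11 ± 0.0221. The NDR window of the 186 held 0.632 ± 0.0136 against 0.629 ± 0.0726.

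TNF-α likewise gave no called promoter. In the same 8 libraries the mean of the median ratio was −0.95 ± 0.14 (SD, n = 4) after TNF-α and −0.78 ± 0.22 (SD, n = 4) without, and the ranges overlapped. Limma's adjusted p of 0.05 was passed by 0 of the 186 and 0 of 13559 (0%). At an unadjusted p under 0.05 there were 19 of the 186 (10.2%) and 771 of all (5.69%). The median estimate was −0.09 for the 186 and −0.08 for all.

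The 3 largest decreases were at Zfp142, Zfp108 and Zfp318. Zfp142, a protein of 37 fingers, was at −0.68, 0.83, −0.97 and 0.24 without TNF-α and at −3.92, −3.85, −2.32 and −3.40 with it, a difference of −3.23 ± 0.58 (SE, adjusted p 0.336 by limma). Zfp108 was at 0.26, 0.44, 0.49 and 1.49 without it and at −0.15, −3.52, −2.64 and −3.15 with it. Zfp318 was at 0.60, 1.57, −1.09 and 0.68 without and at −2.10, −3.70, −2.73 and −1.35 with it. All 3 pairs of groups did not overlap. The pooled fibroblast sets gave −0.07 and −3.37 at Zfp142 but −0.09 and −0.64 at Zfp318. Zfp934, Zfp456 and Zfp959 had the largest increases, by estimates of 3.19, 3.15 and 2.69 with overlapping groups. Zfp934 was at exactly 0 in both non-stimulated control libraries and in non-stimulated knock-down library 2. Empty NDR and flank windows give that value, so its estimate rests largely on windows without signal. Complete separation downward was seen at 7 of the 186 (3.76%) and upward at 2 (1.08%), against 1.92% and 0.959% of all.

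The effect of TNF-α was not called different between knock-down and control at any of the 186 or of the 13559 promoters (0%), by limma's interaction term, with 9 of the 186 (4.84%) and 818 of all (6.03%) at an unadjusted p under 0.05. The smallest p was at Zfp90, a KRAB protein known from heart and T-cell work. Its ratio was −3.55 and −3.54 in non-stimulated controls and −0.75 and −0.76 after TNF-α, and −0.44 and 0.24 in non-stimulated knock-down and −3.55 and −3.37 after TNF-α. The estimated interaction was −6.15 ± 0.62 (SE), p 9.65e-05 and adjusted p 0.145 by limma. The low values of Zfp90, from −3.37 to −3.55, lay near the −3.46 of an empty NDR window. Replicates near that floor can differ little, so its small error may rest on windows with almost no signal. The opposite order was seen at Zfp185, a cytoskeletal LIM protein outside the C2H2 family, at −0.82 and 0.66, then −3.15 and −3.63 in controls, and at −3.44 and −3.59, then −1.03 and −1.47 in knock-down (interaction 5.57 ± 0.88). Zfp934 and Zfp566 had estimates of 6.62 and 4.82, and Zfp189 and Zfp574 of −5.16 and −4.65. The Zfp934 estimate rests on the same values of 0 in the non-stimulated libraries. The low values of Zfp185, from −3.15 to −3.63, also lay near that of an empty NDR window.

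Chromatin pulled down with RNA polymerase II showed a higher +1 nucleosome, while the −1 nucleosome overlapped with that of H3K4me1 over libraries. In the S5P library the mean profile of the 186 fell to 0.323 at 5 bp and peaked at 2.48 at 135 bp and at 1.89 at −225 bp. Active promoters in that library fell to 0.357 and peaked at 2.28 and 1.41. In the S7P libraries the +1 peaks of the 186 were 1.79 and 1.77 and the −1 peaks 1.70 and 1.47, against 1.53 and 1.56 and 1.20 and 1.19 at active promoters. The S5P set is a single library, so its distance from the S7P libraries has no replicate check.

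**Figure D5:**
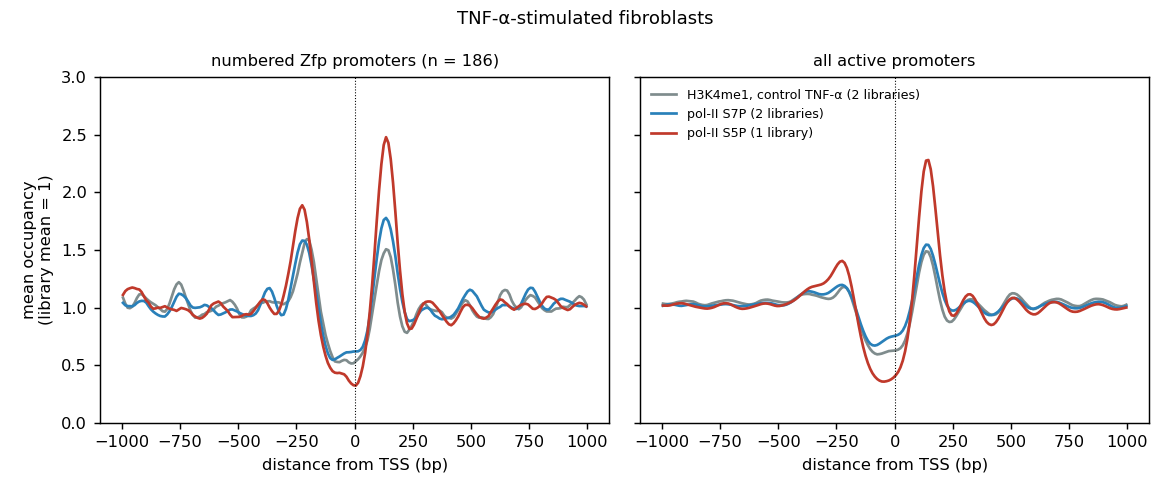
Mean occupancy (library mean = 1) against distance from the TSS in bp in TNF-α-stimulated fibroblasts, for H3K4me1 (mean of 2 control libraries), pol-II S7P (mean of 2) and pol-II S5P (1 library), at the 186 numbered Zfp promoters (left) and at all active promoters (right). The S5P curve reaches 2.48 at the +1 nucleosome on the left and 2.28 on the right, and 1.89 against 1.41 at the −1 nucleosome.

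In the +1 window the 186 had 1.76 ± 0.293 (SD, n = 3) with pol-II and 1.34 ± 0.125 (SD, n = 2) with H3K4me1, and active promoters had 1.6 ± 0.304 and 1.35 ± 0.0609. The +1 values of the 186 ran from 1.58 to 2.10 with pol-II and from 1.26 to 1.43 with H3K4me1, and did not overlap. The −1 window held 1.48 ± 0.132 with pol-II and 1.40 ± 0.0371 with H3K4me1, with ranges of 1.34 to 1.6 and 1.37 to 1.43. No test was run on these means. The pooled H3K4me1 set of TNF-α-stimulated fibroblasts had +1 values of 1.45 at the 186 and 1.42 at active promoters. The median NDR ratio was −0.72, −0.74 and −1.52 in the pol-II libraries and −0.81 and −1.13 with H3K4me1, and the groups overlapped. No promoter among the 186 or the 13559 passed limma's adjusted p of 0.05 (0%), with 14 of the 186 (7.53%) and 1025 of all (7.56%) at an unadjusted p under 0.05. Paired-end sequencing went with the pol-II antibodies, and the single H3K4me1 libraries were labelled as controls of the knock-down while the pol-II libraries were not, so the antibody, the read type and the cells used cannot be told apart.

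By estimate, Zfp142 was at −0.92, −0.24 and −0.59 with pol-II and at −3.92 and −3.85 with H3K4me1, a difference of 3.30 ± 0.47 (SE, adjusted p 0.312 by limma). Zfp326 and Zfp78 had estimates of 3.52 and 3.46. Zfp169 was at −3.08, −3.30 and −3.32 with pol-II and at −0.73 and 0.21 with H3K4me1, a difference of −2.97 ± 0.52. Zfp456 and Zfp217 had −2.70 and −2.54.

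The patterning level was tested in the same 5 comparisons. No promoter passed limma's adjusted p of 0.05 in any of them, either among the 186 or among all 13559 (0% in each). At an unadjusted p under 0.05 there were 16 of the 186 (8.60%) between DCs and fibroblasts, against 1079 of all promoters (7.96%). For the BAF knock-down there were 11 (5.91%) against 793 (5.85%), and for TNF-α 16 (8.60%) against 774 (5.71%). For the interaction there were 12 (6.45%) against 766 (5.65%), and for pol-II 16 (8.60%) against 846 (6.24%). The median estimate for pol-II against H3K4me1 was 1.88 for the 186 and 0.65 for all. In that comparison the pol-II libraries all exceeded the H3K4me1 libraries at 41 of the 186 (22%), against 13.5% of all covered promoters, and all fell below at 17 (9.14%), against 7.88%.

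Zfp764, Zfp456 and Zfp429 had the largest patterning increases with pol-II. Zfp764 was at 15.5, 12.1 and 16.1 with pol-II and at −10.2 and −14.0 with H3K4me1, a difference of 26.7 ± 3.28 (SE, adjusted p 0.778 by limma). Zfp444 had the largest excess of DCs over fibroblasts, 24.3 ± 5.66 (adjusted p 0.622 by limma). In the BAF comparison Zfp668 and Zfp281 had the largest estimates, 17.6 and −13.8.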

How the data were processed

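Nucleosomal fragments from ChIP-MNase were aligned to mm9 and laid over promoters by the authors, who deposited the occupancy signal per 10 bp bin around each TSS. Their methods describe bowtie, and the submitters' processing notes list Bowtie2 and bedtools. The coverage score and the expression score of each promoter were also deposited by the authors, and the methods give expression as FPKM while the column headers name no unit. 2 columns with the authors' own comparisons were not used, so the part of the gene-naming rule that needed them could not be applied.

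Each library was divided by its mean. NDR ratios used a pseudocount of 0.1. Comparisons were fitted in limma 3.58.1 (R 4.3.3) over all 13559 promoters with Benjamini-Hochberg adjustment, and scripts were tested on simulated data. Fits used 4 pooled sets (cell type), 8 control and knock-down libraries (BAF, TNF-α and their interaction) or 2 control TNF-α and 3 pol-II libraries (pol-II). The paper describes its ChIP-MNase replicates as independent and biological. Whether replicate libraries came from separate cultures is not stated in the labels, so p-values measure the spread between these samples. Named genes were the 3 largest estimates in each direction per comparison, the 6 deepest and 6 shallowest promoters, the 5 with the highest expression per cell type, those nearest the score limit, and the role lists. The members and lists were chosen with earlier results of these data known. The −1 and +1 windows and the motif ACTACANNTCCC were set after values had been seen. Symbols were paired for 96.3% of promoters. TSS sequences came from NCBIM37.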

Additional observations from a re-analysis of the deposited data

How the results depend on the processing

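The 10 fits were repeated under the other settings, and a call among the 186 arose in a single fit. With empty bins left out of the means, 1 numbered Zfp promoter passed for TNF-α, Zfp326 (−3.22, adjusted p 0.0373 by limma), of 12 among all promoters. Leaving out 1 library at a time gave counts of 0 to 0 among the 186 in each comparison. Of all promoters, 8 were called for TNF-α without the score filter, 2 without the first control TNF-α library and 1 with the NDR window from −100 to 100 bp. For the BAF knock-down 1 was called with empty bins left out and 1 with that window, for the interaction 1 with empty bins left out, and for patterning between cell types 10 with the state as a term. The cause was not tested. Same-numbered libraries did not deviate together (r from −0.00751 to 0.0211), so the numbers were not read as pairs, and with the replicate block 0 of the 186 passed in each BAF, TNF-α and interaction fit. The median NDR ratio over libraries was −0.95, and moved to −0.64 with a pseudocount of 0.5 and to −0.72 with the window from −100 to 100 bp, below all promoters in 15 of 15 libraries both times. It was −0.88 for the 67 with a score above 200, below in 14 of 15. With that window the interaction of Zfp566 turned from 4.82 to −0.79. The 802 other values of named genes kept their direction and their side of the threshold. Depth limits single promoters: 5 to 57 of the 186 had an empty NDR window in a library. Ratios of named genes near −3.46 can stem from such windows, and a small spread between them is then no sign of precision. Up to 2 of the 186 held no fragment at all in a library, which gives a ratio of 0.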
